A study of Mus musculus with 4 samples.

Results

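Immunoglobulin heavy chain variable segments (Ighv) are the germline pieces of the mouse Igh locus that encode most of the variable domain of an antibody heavy chain. The segments described here were all rows of the gene count table whose symbol started with Ighv and whose counts summed to at least 20 over the 4 libraries. They numbered 83, of 185 Ighv rows and 46078 gene rows in all. Of the other Ighv rows, 32 had counts below that sum and 70 were at 0 in every library. The members nearest the threshold were Ighv1-4 with 20 counts and Ighv2-6-8 with 21, and just outside it lay Ighv1-12 with 19 counts and Ighv1-31 with 18. GENCODE M21 on GRCm38 placed all 83 on the minus strand of chromosome 12, from 113588267 to 116000461, and classed 81 of them as variable genes and 2, Ighv1-83 and Ighv3-2, as pseudogenes.

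During B cell development the recombinase of Rag1 and Rag2 joins 1 Ighv segment to a diversity (Ighd) and a joining (Ighj) segment, so that each B cell clone normally transcribes a single productive heavy chain gene that carries its segment in front of a constant region. The segments fall into subgroups by sequence, written as the number after Ighv, and a shift in which segments are read reflects which clones, and how much RNA from each, are in a sample. Antibody-secreting plasma cells hold far more of this RNA than resting B cells, and conventional dendritic cells do not rearrange the locus.

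The question of the study was how CD103-positive dendritic cells differ when CD11c-expressing cells can lose Il33, which encodes the cytokine IL-33. Messenger RNA was sequenced from 2 libraries of CD11c-cre-Il33flx/flx mice (Il33flx) and 2 libraries of CD11c-cre mice (Ctrl), so that every mouse carried a Cre transgene driven by the CD11c promoter, which is active in dendritic cells and in some other leukocytes. All mice had borne EL4-Flt3 tumour cells for 10 days, and the cells came from spleen and mesenteric lymph node together, sorted as CD45+, CD64-, CD11b+, MHCII+ and CD103+. The gate named in the labels held no marker against B cells or plasma cells. Whether each library is 1 animal or a pool is not in the labels, and p-values therefore measure library-to-library spread alone, part of which may be technical.

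Libraries held 67707682 and 69983532 gene counts in Il33flx and 81217828 and 75094424 in Ctrl. Il33, the targeted gene, had 4 and 0 counts in Il33flx libraries and 4 and 8 in Ctrl libraries, too few to check the labels. Levels are CPM, counts scaled to a common library size with TMM factors, and 3 counts, the limit that a count of 0 allows, came to 0.0391 to 0.0425 CPM. On the scale of log2(CPM + 0.5), r across all genes tested was 0.981 to 0.983 for pairs that include Ctrl 1 and 0.991 to 0.993 for the remaining pairs.

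Germline sequence is shown for the segments on which the comparison of Il33flx with Ctrl turns. Each stretch is 150 bases of the variable exon, read 5′ to 3′ on the minus strand of GRCm38 from the GENCODE M21 transcript, and ends at the second conserved cysteine, the residue after which the diversity and joining segments are added. Capitals mark that codon, TGT, located by a search for a tyrosine codon and a tyrosine or phenylalanine codon before it, which found a match in 83 of 83 segments. Ighv1-58 (chr12:115312172-115312321), Ighv1-78 (chr12:115868779-115868928), Ighv5-6 (chr12:113625514-113625663) and Ighv1-64 (chr12:115507551-115507700) had lower values in both Il33flx libraries. Ighv1-36 (chr12:114879894-114880043), Ighv1-15 (chr12:114657359-114657508) and Ighv6-6 (chr12:114434794-114434943) had higher ones.
Ighv1-58: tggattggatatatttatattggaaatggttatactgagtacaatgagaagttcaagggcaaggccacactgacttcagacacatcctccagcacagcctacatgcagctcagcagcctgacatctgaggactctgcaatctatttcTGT
Ighv1-78: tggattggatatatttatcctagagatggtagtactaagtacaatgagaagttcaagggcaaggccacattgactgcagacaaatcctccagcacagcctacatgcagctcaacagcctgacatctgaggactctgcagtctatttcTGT
Ighv5-6: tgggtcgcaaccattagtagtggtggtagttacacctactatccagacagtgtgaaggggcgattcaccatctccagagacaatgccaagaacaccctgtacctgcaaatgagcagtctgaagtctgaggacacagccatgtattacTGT
Ighv1-64: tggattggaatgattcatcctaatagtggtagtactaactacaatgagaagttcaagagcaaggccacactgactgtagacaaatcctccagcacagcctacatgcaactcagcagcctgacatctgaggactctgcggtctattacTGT
Ighv1-36: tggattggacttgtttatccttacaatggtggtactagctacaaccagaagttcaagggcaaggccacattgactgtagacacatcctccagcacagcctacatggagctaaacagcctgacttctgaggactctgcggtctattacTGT
Ighv1-15: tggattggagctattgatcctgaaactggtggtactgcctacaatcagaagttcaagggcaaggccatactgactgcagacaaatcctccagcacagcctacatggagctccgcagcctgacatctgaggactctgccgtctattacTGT
Ighv6-6: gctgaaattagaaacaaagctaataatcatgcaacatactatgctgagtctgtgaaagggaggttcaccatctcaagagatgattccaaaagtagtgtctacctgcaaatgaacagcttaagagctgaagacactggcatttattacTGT

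Relatives are shown next because a read is assigned to a segment only by the bases that set it apart. Ighv14-1 (chr12:113931959-113932108) and Ighv14-4 (chr12:114176444-114176593) differed at 5 of these 150 bases, and Ighv5-9 (chr12:113661777-113661926) and Ighv5-9-1 (chr12:113736119-113736268) at 13. Capitals mark the bases that differ within a pair.
Ighv14-1: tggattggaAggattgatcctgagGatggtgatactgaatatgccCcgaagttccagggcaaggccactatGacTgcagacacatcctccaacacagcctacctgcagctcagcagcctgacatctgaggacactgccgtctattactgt
Ighv14-4: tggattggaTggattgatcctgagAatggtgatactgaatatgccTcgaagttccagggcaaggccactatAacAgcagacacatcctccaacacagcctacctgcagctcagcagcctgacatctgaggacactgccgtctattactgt
Ighv5-9: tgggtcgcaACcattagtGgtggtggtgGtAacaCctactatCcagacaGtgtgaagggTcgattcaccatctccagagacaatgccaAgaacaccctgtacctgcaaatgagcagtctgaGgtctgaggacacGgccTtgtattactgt
Ighv5-9-1: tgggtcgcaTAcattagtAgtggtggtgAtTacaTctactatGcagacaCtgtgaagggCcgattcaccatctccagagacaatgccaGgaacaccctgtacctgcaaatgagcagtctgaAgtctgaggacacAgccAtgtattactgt

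All libraries contained Ighv reads, spread over many segments. The members held 9778 and 9132 counts in Il33flx libraries and 17051 and 11686 in Ctrl libraries. At least 1 count was found for 78 and 76 members in Il33flx and for 74 and 74 in Ctrl, and 65 members had a count in all 4 libraries. Summed over members, the level was 138 and 129 CPM in Il33flx (134 ± 6.76, SD, n = 2) and 222 and 155 CPM in Ctrl (189 ± 47.2, SD, n = 2), a ratio of 0.708. Both Il33flx libraries lay below both Ctrl libraries, but without Ctrl 1 the ratio was 0.861. No permutation test was run on such single values, because 2 libraries against 2 allow no exact two-sided p under 0.33.

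Summed Ighv RNA moved with summed Igh constant region RNA. For every 100 counts in the 8 Igh constant genes, the members held 10.0 and 9.52 counts in Il33flx libraries and 10.1 and 10.6 in Ctrl libraries. The constant genes summed to 1380 and 1354 CPM in Il33flx and 2200 and 1460 CPM in Ctrl. They did not move as 1: Igha and Ighg3 were lower in both Il33flx libraries, and Ighd and Ighg1 higher. Igha had 100 and 134 CPM in Il33flx and 615 and 353 CPM in Ctrl. Ighm, the most read, overlapped, at 1033 and 914 CPM in Il33flx and 1243 and 903 CPM in Ctrl. In a bulk sample, fewer cells of a type and less RNA per cell cannot be told apart. The summed levels of antibody genes and of lineage markers therefore stand side by side in the plot of summed levels.

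**Figure D1:**
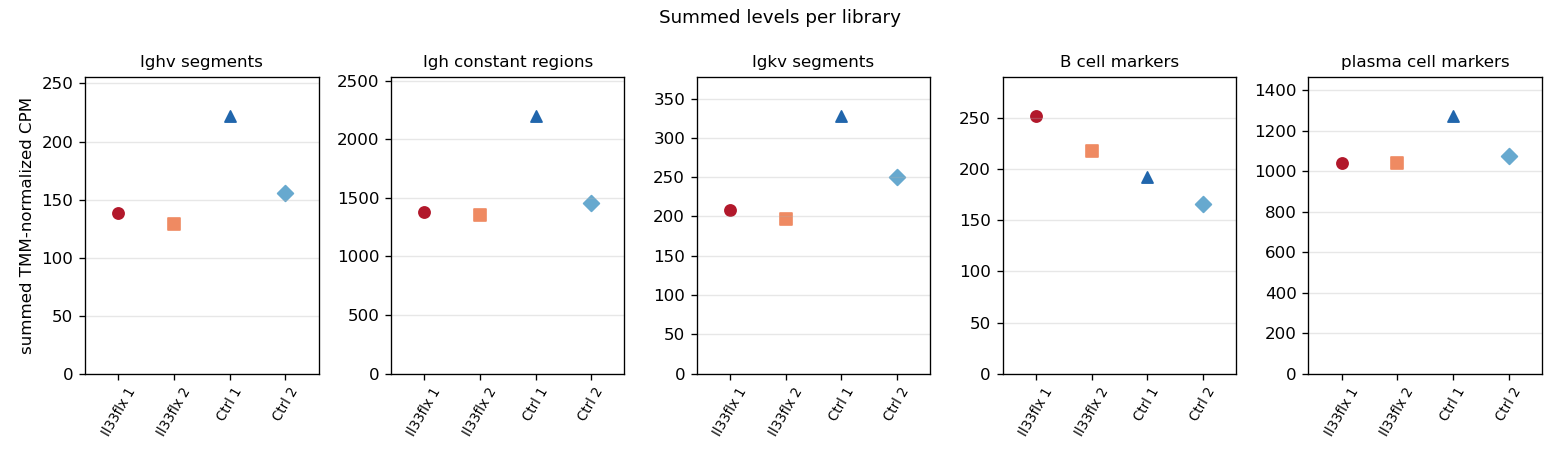
Summed TMM-normalized CPM (vertical axes, from 0, with a scale of their own in each panel) in each library, for Ighv segments, Igh constant regions, Igkv segments, B cell markers and plasma cell markers. Points are single libraries. The 2 Il33flx libraries lie below both Ctrl libraries for the antibody genes and plasma cell markers, and above them for B cell markers (252 and 218 against 192 and 166 CPM). Most of the plasma cell marker sum is Txndc5, Xbp1 and Creld2.

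B cell markers ran the other way. Of 15 B cell markers, all tested, 12 were higher in both Il33flx libraries and 0 lower in both, where the same held for 15.4% and 14.9% of all genes tested, and their summed level was 252 and 218 CPM in Il33flx and 192 and 166 CPM in Ctrl. Ms4a1, which encodes CD20, had 27.6 and 20.8 CPM in Il33flx and 9.01 and 19.5 CPM in Ctrl. Of 12 plasma cell markers, 4 were higher and 6 lower in both Il33flx libraries, and the sum was 1039 and 1040 CPM in Il33flx and 1274 and 1077 CPM in Ctrl. Most of that sum was Txndc5, Xbp1 and Creld2, and Creld2 overlapped between groups. Several of the plasma cell markers are also expressed in dendritic cells, Xbp1 among them. Of the defining plasma cell markers, Tnfrsf17, the receptor BCMA, had 0.0283 and 0.0565 CPM in Il33flx and 0.365 and 0.213 CPM in Ctrl. These were 2 and 4 counts in Il33flx, near the detection limit, and 28 and 16 in Ctrl. Sdc1, which encodes CD138, had 2.42 and 2.50 CPM in Il33flx and 2.61 and 1.53 CPM in Ctrl. No gene of either list was called by edgeR, and DESeq2 called 2 of the B cell markers higher, Pax5 and Cr2. The B cell markers thus ran against the summed Ighv level and the plasma cell markers were split, and the part of either in the results below was not tested.

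The most read segment was not the same in the Il33flx libraries as in the Ctrl libraries. In Il33flx 1, Ighv1-80 took 10.7% of the Ighv counts (95% Clopper-Pearson interval 10.1 to 11.3%), followed by Ighv5-17 and Ighv6-6. In Il33flx 2, Ighv1-81 took 8.32% (7.76 to 8.91%), followed by Ighv6-6 and Ighv9-3. Ighv1-64 led both Ctrl libraries, with 24.4% in Ctrl 1 (23.8 to 25.1%) and 12.2% in Ctrl 2 (11.6 to 12.8%), against 3.79% in Il33flx 1 (3.42 to 4.19%) and 2.57% in Il33flx 2 (2.26 to 2.92%). The intervals hold counting error alone, as PCR copies of a molecule are not independent. The 10 most read segments of the 4 libraries made up a set of 20, of which 2 were in the top 10 of every library.

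Concentration on a few segments did not separate the groups. The effective number of segments, the inverse of the sum of squared shares (inverse Simpson index), was 26.8 and 26.4 in Il33flx libraries and 12.7 and 29.0 in Ctrl libraries. The difference of means was 5.79 segments, less than the SD of 11.5 between Ctrl libraries, and it was -2.33 without Ctrl 1. The 10 most read segments together held 50.1 and 52.2% of the Ighv counts in Il33flx and 57.0 and 43.8% in Ctrl.

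**Figure D2:**
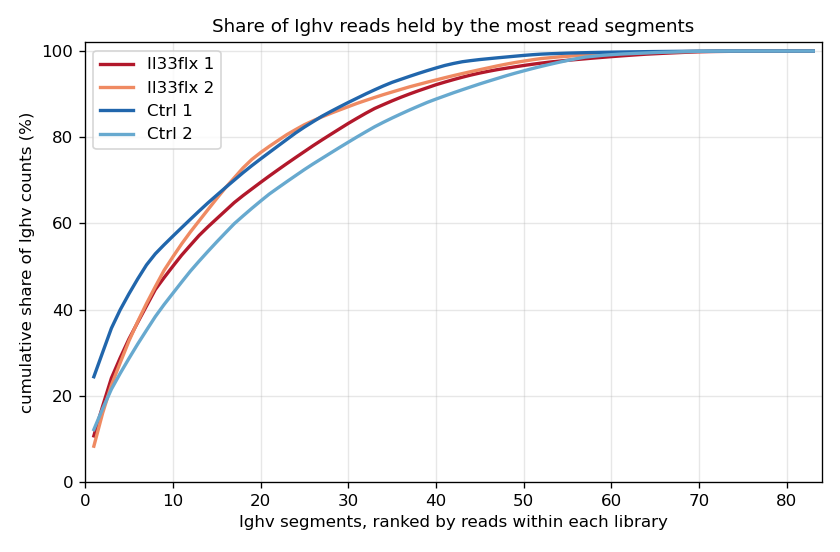
Cumulative share of Ighv counts (%) against the number of segments, ranked by reads within each library; each line is 1 library. Ctrl 1 starts highest, at 24.4% for Ighv1-64, and the Il33flx libraries start at 10.7% and 8.32%.

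By subgroup, the Ighv1 segments, the large J558 family, held 54.1% of all Ighv counts in 43 members. Their summed level was 67.8 and 53.8 CPM in Il33flx libraries and 139 and 86.0 CPM in Ctrl libraries. Without Ighv1-64, the sums were 62.6 and 50.5 CPM in Il33flx and 85.2 and 67.1 CPM in Ctrl, so the groups still did not overlap. Subgroups Ighv5 and Ighv6 went the other way. Ighv5 summed to 23.2 and 20.7 CPM in Il33flx and 12.3 and 18.8 CPM in Ctrl, and Ighv6 to 11.1 and 16.6 CPM in Il33flx and 4.79 and 8.01 CPM in Ctrl.

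Smaller subgroups with lower sums in both Il33flx libraries were Ighv14, Ighv10, Ighv4 and Ighv7. Ighv14 summed to 5.41 and 2.26 CPM in Il33flx and 10.3 and 7.27 CPM in Ctrl. Ighv4, here the single segment Ighv4-1, had 0.0566 and 0.776 CPM in Il33flx and 2.29 and 1.97 CPM in Ctrl. The sums of Ighv2, Ighv3, Ighv8, Ighv9 and Ighv11 overlapped between groups. No row of subgroups Ighv12, Ighv13, Ighv15 or Ighv16 reached 20 counts.

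**Figure D3:**
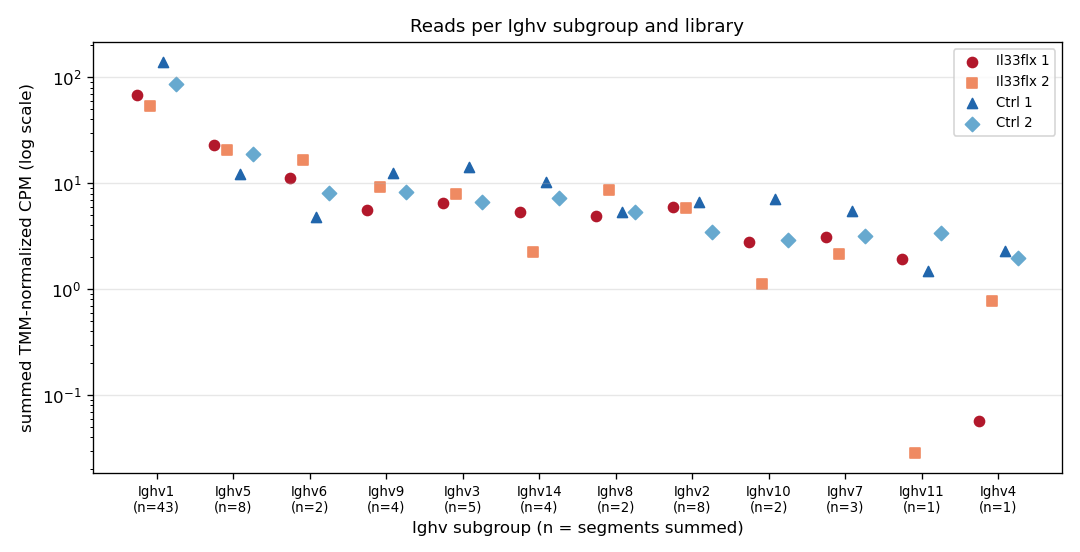
Summed TMM-normalized CPM (log scale) of each Ighv subgroup, in order of total reads, with the number of segments summed under each name; points are single libraries. Ighv1 lies lower in both Il33flx libraries and Ighv5 and Ighv6 higher, while Ighv2, Ighv3, Ighv8, Ighv9 and Ighv11 overlap.

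Segment by segment, Il33flx was set against Ctrl with the quasi-likelihood F test of edgeR, adjusted by Benjamini-Hochberg over 14995 genes and called below 0.05. Of the 83 members, 66 passed the filter on low counts and 17, with totals of 20 to 443 counts, were not tested. None of the 66 was called, where 0.00667% of all genes tested were. At an unadjusted p under 0.05 there were 5 higher and 14 lower members, where the shares of all genes were 2.02% and 1.24%. The lowest adjusted p among them was 0.272 (edgeR), for Ighv1-58. Values of both Il33flx libraries lay above both Ctrl libraries for 11 of the 66 and below both for 18, where the shares of all genes were 15.4% and 14.9%. The median log2 fold change over the 66 was -0.54, against 0.01 over all genes, with 42 negative and 24 positive, where 48.2% and 51.8% of all genes were. Setting Ighv1-36, which was at 0 in Ctrl, to its lower bound could not move this median, because the bound is positive too. The median was 0.13 over 80 segments without Ctrl 1 and -0.10 over 77 without Ctrl 2. These were the larger sets that then passed the filter, so the values are not for the same 66 segments. Without Ctrl 1, edgeR called 3 members higher and 7 lower of 80 tested, where the shares of all genes were 0.12% and 0.107%. Without Il33flx 1 it called 1 higher and 7 lower of 77, against 0.0632% and 0.12% of all genes, and without Ctrl 2 or Il33flx 2 it called 0.

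Other tools counted differently. DESeq2 called 3 members higher and 9 lower of 83, where the shares of all genes were 0.151% and 0.104%, and limma-voom called 0 of 66. The segments that DESeq2 called higher were Ighv6-6, Ighv1-15 and Ighv1-36. Those called lower were Ighv1-64, Ighv1-58, Ighv1-78, Ighv14-1, Ighv5-6, Ighv1-42, Ighv1-72, Ighv1-9 and Ighv1-77. All 12 had groups that did not overlap, which a call with 2 libraries per group nearly requires. Of the 12, 9 were of subgroup Ighv1, which held 43 of the 83 members. In the authors' deposited table, made with the same tool, 3 of 73 listed members passed an adjusted p of 0.05 upward and 8 downward, where the shares of that table were 0.207% and 0.133%. Those 11 were among the 12, and made up 11 of the 51 genes called in the authors' deposited table.

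Among segments with lower values in Il33flx, Ighv1-64 was the most read. It had 371 and 235 counts in Il33flx libraries and 4166 and 1423 in Ctrl libraries, or 5.25 and 3.32 CPM against 54.3 and 18.9 CPM. The highest Il33flx value was below the lowest Ctrl value, although the Ctrl libraries themselves were far apart. The log2 fold change was -3.09 ± 0.54 SE (adjusted p = 0.647, edgeR). Without Ctrl 1 it was -2.13 and called (adjusted p = 0.00713, edgeR), without Il33flx 1 it was -3.47 and called (adjusted p = 0.00329), and it was not called without Ctrl 2 (-3.67) or without Il33flx 2 (-2.76). Its nearest relative, Ighv1-62, was at 95.7% identity and had 5 counts in all.

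Ighv1-58 had 14 and 9 counts in Il33flx libraries and 266 and 192 in Ctrl libraries, with a log2 fold change of -4.20 ± 0.49 SE (adjusted p = 0.272, edgeR). In Ighv1-78, 54 and 49 counts in Il33flx stood against 304 and 405 in Ctrl, a log2 fold change of -2.68 ± 0.37 SE (adjusted p = 0.477, edgeR). Without Ctrl 1 both were called, at adjusted p = 0.0159 for Ighv1-58 and 0.00713 for Ighv1-78 (edgeR), and without Il33flx 1 Ighv1-58 was called (adjusted p = 0.00848, edgeR). In both segments the libraries of a group were close to each other and the groups were well apart. The nearest relative of each was Ighv1-77, at 89.7% identity to Ighv1-58 and 89.4% to Ighv1-78, so their reads could be told from those of other segments over 95.7% and 85.3% of 50-base windows.

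Ighv14-1 and Ighv5-6 were near the detection limit in Il33flx. Ighv14-1 had 13 and 4 counts in Il33flx libraries and 357 and 167 in Ctrl libraries (log2 fold change -4.82 ± 0.71 SE, adjusted p = 0.551, edgeR). Ighv14-4, the close relative shown above, had 37 and 37 counts in Il33flx and 2 and 136 in Ctrl, so the pair did not move together. Ighv14-1 was called without Ctrl 1 (log2 fold change -4.18, adjusted p = 0.0337, edgeR) and without Il33flx 1 (-5.89, adjusted p = 0.00174). Ighv5-6 had 8 and 3 counts in Il33flx and 216 and 86 in Ctrl (log2 fold change -4.64 ± 0.76 SE, adjusted p = 0.636, edgeR), and was called without Il33flx 1 (-5.49, adjusted p = 0.0124, edgeR).

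Ighv1-9 differed least in size and was the steadiest of these, with 3.20 and 2.96 CPM in Il33flx and 7.19 and 7.52 CPM in Ctrl (log2 fold change -1.25 ± 0.28 SE, adjusted p = 0.995, edgeR). Ighv1-42 had 9 and 13 counts in Il33flx and 188 and 54 in Ctrl. Ighv1-72, the segment of the classic mouse antibody response to the hapten NP, had 45 and 26 counts in Il33flx and 438 and 116 in Ctrl. Without Ctrl 1 the log2 fold change of Ighv1-72 was -1.61, against -2.85 with all libraries, and that of Ighv1-42 was -2.19, against -3.33. The value of Ighv1-72 is uncertain, because it differs from Ighv1-62-3 at 3 bases and only 7.49% of its 50-base windows are found nowhere else among the segments.

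Among segments with higher values in Il33flx, Ighv1-36 was read in Il33flx libraries alone, with 129 and 40 counts against 0 and 0 in Ctrl. Against a limit of 3 counts over both Ctrl libraries it was at least 60.5-fold higher (adjusted p = 0.647, edgeR), and it was called without Ctrl 1 (adjusted p = 0.0481, edgeR). Ighv1-15 had 140 and 410 counts in Il33flx and 6 and 24 in Ctrl (log2 fold change 4.28 ± 0.83 SE, adjusted p = 0.873, edgeR), and was called without Il33flx 1 (4.86, adjusted p = 0.000686, edgeR). Its nearest relative, Ighv1-23, was at 98.0% identity and had 3 counts in all. Ighv6-6 combined a high level with close libraries, at 9.02 and 9.89 CPM in Il33flx and 3.36 and 4.05 CPM in Ctrl (log2 fold change 1.35 ± 0.27 SE, adjusted p = 0.873, edgeR).

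The other 5 segments with the smallest p in this direction were mostly read less. Ighv2-9-1 had 150 and 17 counts in Il33flx and 3 and 9 in Ctrl, and Ighv2-3 had 88 and 237 in Il33flx and 68 and 11 in Ctrl. Ighv8-12 was close within groups, at 223 and 229 counts in Il33flx and 119 and 155 in Ctrl. Ighv1-66 had 32 and 42 counts in Il33flx and 13 and 0 in Ctrl, and Ighv2-6 had 31 and 81 in Il33flx and 28 and 16 in Ctrl. The groups did not overlap in any of the 5, and the adjusted p was 0.995 for each (edgeR).

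The remaining highly read segments overlapped between groups or differed little. Ighv1-80 had 14.8 and 6.55 CPM in Il33flx and 9.48 and 7.03 CPM in Ctrl, and Ighv1-81 had 5.27 and 10.7 CPM in Il33flx and 8.23 and 4.89 CPM in Ctrl. Ighv9-3 had 5.35 and 8.37 CPM in Il33flx and 12.5 and 4.04 CPM in Ctrl, Ighv3-6 had 6.50 and 3.33 CPM in Il33flx and 12.5 and 4.96 CPM in Ctrl, and Ighv8-8 had 1.78 and 5.39 CPM in Il33flx and 3.84 and 3.31 CPM in Ctrl. The groups overlapped in each of these. Ighv5-17 also overlapped, at 9.53 and 5.02 CPM in Il33flx and 3.93 and 5.21 CPM in Ctrl. Ighv1-82 was lower in both Il33flx libraries, at 3.82 and 2.53 CPM against 4.44 and 4.35 CPM in Ctrl (log2 fold change -0.47 ± 0.34 SE, adjusted p = 0.995, edgeR).

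**Figure D4:**
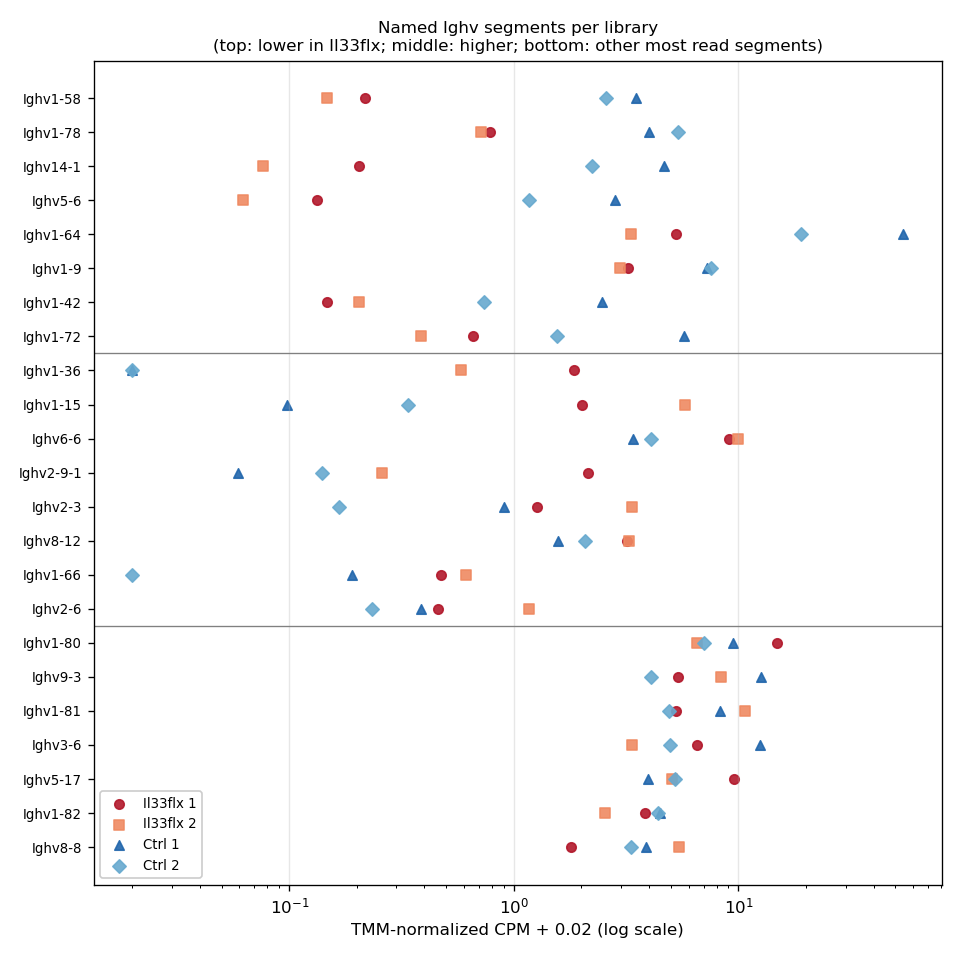
TMM-normalized CPM + 0.02 (log scale) of named Ighv segments, 1 row each, in every library (points). In the top block both Il33flx libraries lie left of both Ctrl libraries, in the middle block right of them, and in the bottom block, apart from Ighv1-82, the groups overlap; Ighv1-36 is at 0 in both Ctrl libraries.

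Several members were absent from 1 group. Ighv3-5, Ighv9-4 and Ighv1-84 had 30, 47 and 34 counts in Il33flx 2 and 0 in the other libraries. Ighv1-20 had 26 and 2 counts in Il33flx and 0 and 0 in Ctrl. The pseudogene Ighv3-2 had 0 and 0 counts in Il33flx and 12 and 10 in Ctrl. Each of these segments reached the threshold of 20 counts only through the group that read it. A fold difference from the other group would therefore be large by that rule, and none is given. None of these 5 was tested.

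Ighv segments varied more between libraries of the same group than other genes did. The median absolute difference between the libraries of a group, on the scale of log2(CPM + 0.5), was 0.60 in Il33flx and 0.92 in Ctrl over the tested segments, where it was 0.19 and 0.30 over all genes tested. By CPM without an offset, 14 of the 66 segments were at least 4-fold apart between the Il33flx libraries and 22 between the Ctrl libraries. The shares of all genes were 2.85% and 5.30%. The biological coefficient of variation that edgeR estimated per gene had a median of 50.7% over the segments and 24.8% over all genes. At the abundance of the segments the fitted trend had a median of 38.3%, and 57 of 66 segments lay above their trend value, where 26.9% of all genes did.

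Single libraries accounted for much of the reading of some segments. For 16 members, at least 80% of the summed CPM came from 1 library: 5 in Il33flx 1, 3 in Il33flx 2, 2 in Ctrl 1 and 6 in Ctrl 2. Together they held 4.04% of the Ighv counts, and 4 of them were tested. The share of all genes at this cut was not computed, so the number is not a trait particular to Ighv segments. Some of the 16, such as Ighv1-4 with 20 counts and Ighv1-49 with 26, reached the member threshold only through that library. Ighv5-9 had 9 and 6 counts in Il33flx and 0 and 428 in Ctrl. Ighv5-9-1, its close relative shown above, had 428 and 346 counts in Il33flx and 5 and 205 in Ctrl. Ighv9-2 had 16 and 1 counts in Il33flx and 0 and 263 in Ctrl, Ighv1-77 had 2 and 1 in Il33flx and 7 and 139 in Ctrl, and Ighv1-47 had 125 and 6 in Il33flx and 3 and 2 in Ctrl. For Ighv5-9, Ighv9-2, Ighv1-77 and Ighv1-47 a difference between groups rests on 1 library, whereas Ighv5-9-1 was higher in both Il33flx libraries than in either Ctrl library.

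Across the 83 segments, levels on the scale of log2(CPM + 0.5) correlated at r = 0.753 between the Il33flx libraries and at 0.620 between the Ctrl libraries. Between libraries of different groups r ran from 0.456 to 0.569. Segments share libraries and are not independent, so these values only describe the libraries.

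**Figure D5:**
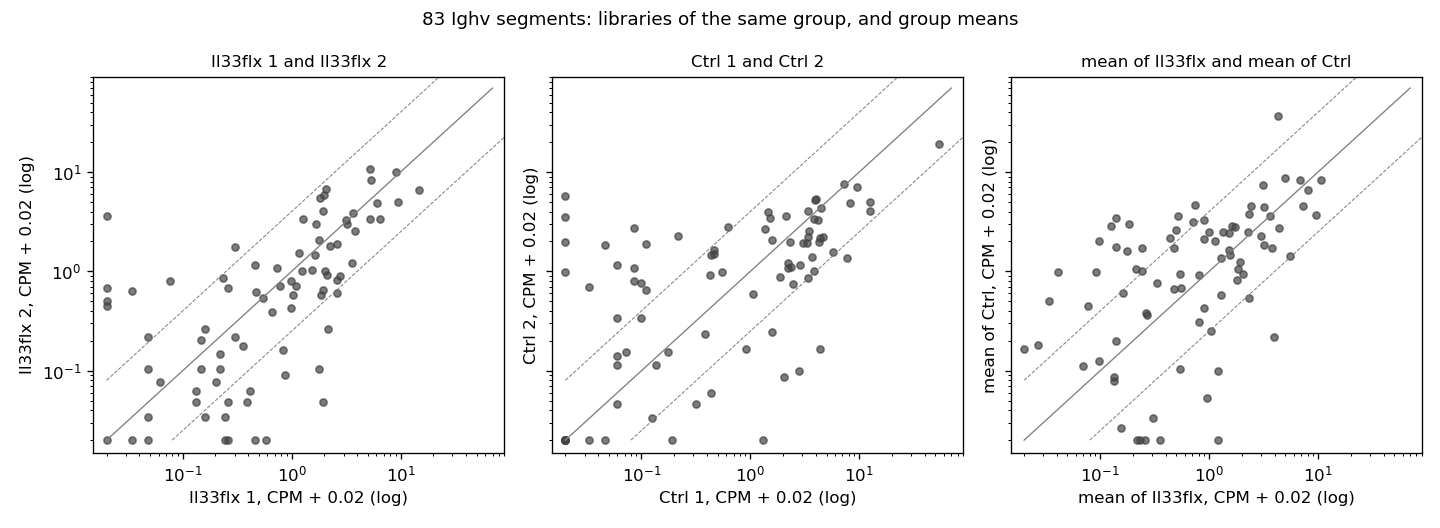
Levels of the 83 Ighv segments as CPM + 0.02 (log axes): Il33flx 1 against Il33flx 2, Ctrl 1 against Ctrl 2, and the mean of Il33flx against the mean of Ctrl. Points are segments, the solid line marks equal levels and the dashed lines a 4-fold difference. By CPM without an offset, 26 of 83 segments were at least 4-fold apart between the Il33flx libraries and 30 of 83 between the Ctrl libraries. A segment at 0 in a single library of a group counts among these.

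To describe position in the locus, the rows were ordered by start and cut into 3 parts of 62, 62 and 61 rows, from the end near the joining segments outward. The part farthest from them held 31 members and 40.2 and 37.0% of the Ighv counts in Il33flx libraries, against 52.4 and 47.6% in Ctrl libraries. Ighv1-64, Ighv1-58 and Ighv1-78 lie in that part. Of its 24 tested members, 10 were lower and 3 higher in both Il33flx libraries, where 14.9% and 15.4% of all genes were. In the middle part 5 were lower and 3 higher of 17, and in the nearest part 3 were lower and 5 higher of 25. The median log2 fold change had another order, at -0.72 in the nearest part, -0.57 in the middle and -0.47 in the farthest. Across the 83 segments the Spearman rho of mean CPM with distance from the Ighv row closest to the joining segments was 0.04. With the share of 50-base windows found in no other segment it was 0.12. Both only describe segments that share libraries.

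The germline sequences were closely related. The most similar segment was at 83.2 to 99.7% identity (median 95.5%) and in all 83 cases belonged to the same subgroup. For 18 members it was at 97% or more, and for 10 members fewer than 50% of 50-base windows were found in no other segment. Ighv1-71 and Ighv1-62-2 differed at 1 base. Ighv1-71 had 8 and 2 counts in Il33flx and 34 and 111 in Ctrl, and Ighv1-62-2 had 17 and 0 in Il33flx and 3 and 24 in Ctrl. Their counts are uncertain, since reads that match both can be left out or split. In all libraries, 21.9 to 23.1% of counted reads did not align uniquely and 2.62 to 2.74% were ambiguous between genes. Rearranged segments can also carry somatic mutations that a germline reference does not hold. Exonic lengths ran from 347 to 480 bases (median 353), so the order of levels per kilobase was nearly that of CPM, with Ighv1-64, Ighv1-80, Ighv9-3 and Ighv1-81 first. Only Ighv1-5 overlapped another annotated gene.

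The genes joined to Ighv segments were read as follows. Ighm, the constant region of IgM, had 1033 and 914 CPM in Il33flx and 1243 and 903 CPM in Ctrl, an overlap between groups, and made up 74.9 and 67.5% of constant region counts in Il33flx and 56.5 and 61.9% in Ctrl. Igha, the constant region of IgA, the antibody of mucosal surfaces, was lower in both Il33flx libraries, at 100 and 134 CPM against 615 and 353 CPM in Ctrl. Its log2 fold change was -2.05 ± 0.31 SE (adjusted p = 0.551, edgeR). DESeq2 called it lower (adjusted p = 9.74e-07), the only one of 8 constant regions that it called. Ighg1 was higher in both Il33flx libraries, at 10.7 and 5.49 CPM against 0.391 and 2.54 CPM in Ctrl (adjusted p = 0.995, edgeR).

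Of the other constant regions, Ighd, the constant region of IgD of resting B cells, was higher in both Il33flx libraries, at 13.3 and 14.0 CPM against 12.3 and 9.77 CPM in Ctrl. Ighg3 was lower in both, at 39.5 and 45.4 CPM against 57.3 and 45.7 CPM in Ctrl. Ighg2b had 106 and 99.2 CPM in Il33flx and 141 and 104 CPM in Ctrl, and Ighg2c had 76.2 and 140 CPM in Il33flx and 132 and 41.5 CPM in Ctrl, both with overlap. Ighe, the constant region of IgE, had 9 and 107 counts in Il33flx and 10 and 8 in Ctrl. Of the joining segments, Ighj4 had 2.35 and 2.09 CPM in Il33flx and 1.84 and 1.21 CPM in Ctrl, and Ighj3 had 0.156 and 0.155 CPM in Il33flx and 0.234 and 0.346 CPM in Ctrl.

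Light chain variable segments showed a like mixture. The Igkv segments summed to 208 and 197 CPM in Il33flx and 328 and 250 CPM in Ctrl. Of 71 tested, 13 were higher and 21 lower in both Il33flx libraries, where 15.4% and 14.9% of all genes were. None was called by edgeR, and DESeq2 called 3 higher and 3 lower, where 0.151% and 0.104% of all genes were. Igkv4-90 had 0 and 0 counts in Il33flx and 489 and 163 in Ctrl (adjusted p = 0.414, edgeR), and Igkv13-85 had 43 and 57 in Il33flx and 1 and 2 in Ctrl (adjusted p = 0.593, edgeR). Igkc, the kappa constant region, was lower in both Il33flx libraries, at 316 and 293 CPM against 522 and 375 CPM in Ctrl (adjusted p = 0.995, edgeR). Iglc3, a lambda constant region, was higher in both, at 8.11 and 4.25 CPM against 2.45 and 2.79 CPM in Ctrl, as was Iglv3, at 4.02 and 5.31 CPM against 0.769 and 1.83 CPM in Ctrl. Iglv2 overlapped, at 8.74 and 8.88 CPM in Il33flx and 1.67 and 9.93 CPM in Ctrl.

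Genes that act on the locus earlier or later were low and mostly higher in Il33flx. Of the surrogate light chain genes, which pair with heavy chains in B cell precursors, all 3 tested were higher in both Il33flx libraries. Igll1 had 0.963 and 0.550 CPM in Il33flx and 0.143 and 0.186 CPM in Ctrl, and Vpreb3 had 2.38 and 1.26 CPM in Il33flx and 0.599 and 0.159 CPM in Ctrl. Vpreb1 was nearly level with Ctrl 1, at 0.354 and 0.409 CPM in Il33flx and 0.352 and 0.093 CPM in Ctrl. Of 10 recombination genes, 3 were higher and 1 lower in both Il33flx libraries. Dntt, the enzyme that adds bases at the joints, had 2.36 and 3.15 CPM in Il33flx and 1.34 and 0.864 CPM in Ctrl. Prkdc, the kinase of the end-joining step, had 21.6 and 21.4 CPM in Il33flx and 8.83 and 18.5 CPM in Ctrl.

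Of 6 genes of class switching and somatic hypermutation, 3 were higher and 1 lower in both Il33flx libraries. Ung, a uracil glycosylase, had 6.16 and 5.49 CPM in Il33flx and 3.65 and 3.88 CPM in Ctrl. Of 8 octamer-binding and B lineage factors, 4 were higher and 0 lower in both Il33flx libraries. Pax5, the factor that keeps B cell identity, had 1.74 and 1.06 CPM in Il33flx and 0.182 and 0.186 CPM in Ctrl (adjusted p = 0.791, edgeR; adjusted p = 0.00997, DESeq2). Ebf1 had 5.54 and 3.39 CPM in Il33flx and 2.67 and 0.651 CPM in Ctrl. Bank1, a B cell adaptor, had 23.2 and 23.9 CPM in Il33flx and 9.78 and 12.9 CPM in Ctrl, and Derl3, a plasma cell gene of protein quality control, had 6.10 and 5.17 CPM in Il33flx and 9.61 and 8.28 CPM in Ctrl. None of the genes in these lists was called by edgeR, and the shares of all genes higher and lower in both Il33flx libraries were the 15.4% and 14.9% given above. The dendritic cell markers summed to 35869 and 41967 CPM in Il33flx and 45897 and 37657 CPM in Ctrl. Most of that sum was H2-Ab1, an MHC class II gene, at 33050 and 39021 CPM in Il33flx and 42762 and 34599 CPM in Ctrl. Itgax, which encodes CD11c, had 359 and 407 CPM in Il33flx and 646 and 517 CPM in Ctrl. Itgae, which encodes CD103, had 76.6 and 56.8 CPM in Il33flx and 116 and 68.5 CPM in Ctrl.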

How the data were processed

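RNA of 2 Il33flx and 2 Ctrl libraries was sequenced from poly(A) libraries (Illumina TruSeq mRNA). The deposited values were whole-number read counts per gene, left unnormalized by the authors. The submitters' processing notes name the build GRCm38 and the tools HTSeq, STAR, DESeq2 and Trimmomatic 0.39; other versions, annotation, strandedness and read length are not given in the sources used here. The HTSeq summary rows, 27.8 to 30.1% of counted reads, were left out before scaling and testing. The authors' deposited table held a signal per library (counts divided by 1 size factor per library), a log2 fold change, a score (their Wald statistic) and p-values; it was used only where it is named.

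Symbols came from the authors' deposited table and otherwise from GENCODE M21. The fit ran on the whole table with edgeR 4.0.16 in R 4.3.3 (filterByExpr, TMM, quasi-likelihood F test, no covariate), with Benjamini-Hochberg adjustment over 14995 genes. Standard errors follow from the F statistic (fold change on the log2 scale over √F). Alternatives were RLE factors, library size alone, a filter of 1 CPM in 2 libraries, no filter, DESeq2 1.42.0, limma-voom (limma 3.58.1), a replicate block and leaving out each library. Counts were also simulated with the spread of these libraries, over 14560 genes. There edgeR called 11 of 62 genes changed 2-fold, 41 of 60 changed 4-fold, 57 of 68 changed 8-fold and 17 of 14370 unchanged ones. The changed genes were drawn from all genes tested, with a median biological coefficient of variation of 24.8%, against 50.7% over the tested segments. The simulation therefore does not measure how often changed Ighv segments would be called.

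The members, lists and tests were chosen with earlier results of these data known, so lists have counts and medians and no test. Named segments were the 10 with the highest mean CPM, the 3 most read in each library, the 8 with the smallest p in each direction, and 2 on each side of the threshold; from each other list the 2 genes with the smallest p were named, and all constant regions. Segments named for a count of 0, for reading in 1 library or as close relatives were chosen after their values were seen. So were the marker genes Ms4a1, Sdc1, Cr2, Txndc5, Xbp1, Creld2 and H2-Ab1, and Vpreb1, Ighv1-77 and Ighv4-1. A few list genes are not reported here.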

Additional observations from a re-analysis of the deposited data

How the results depend on the processing

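The count of called segments depended on the tool and on single libraries. DESeq2 called 3 segments higher and 9 lower, and a replicate block in edgeR called 2 higher and 6 lower (0.127% and 0.0934% of all genes), where the main comparison called none. Leaving out 1 library gave 0 to 3 higher and 0 to 7 lower. Without Ctrl 1 there were 10 calls and without Il33flx 1 there were 8, but without Ctrl 2 or Il33flx 2 there were 0; the lone library of a group was then assumed to vary like the other group. The 8 segments called with the block were all among the 12 called by DESeq2. The replicate numbers are not shown to pair libraries: deviations of same-numbered libraries correlated at -0.03 over 14995 genes. The median log2 fold change ran from -0.81 to 0.13 when 1 library was left out, and was 0.13 without Ctrl 1. The ratio of summed levels ran from 0.602 to 0.861, the highest without Ctrl 1. The difference in effective number was -5.53 without the most read segment of each library and ran from -2.33 to 13.9 when 1 library was left out. Of 23 named segments tested, 11 were called under at least 1 alternative and 4 changed sign. The log2 fold change of Ighv8-8, near 0, was -0.012 with RLE factors, -0.0046 with no filter, -0.018 by DESeq2, -0.20 by limma-voom and -0.19 with the block, and ran from -0.97 to 0.59 when 1 library was left out. For Ighv1-80 that range was -0.34 to 0.88, for Ighv9-3 -0.88 to 0.77, and for Ighv1-81 -0.28 to 0.71. The causes were not tested. At this depth values near 3 counts carry little information, and 17 of the 83 members were too low in too many libraries to be tested.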
